A study of Mus musculus with 6 samples.

Results

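Immediate early genes are genes that a cell transcribes within minutes of a stimulus without first making new protein, and together with heat shock and injury genes they are widely used as marks of tissue dissociation and cell sorting. The set described here holds 35 such genes, listed by name for their roles, with earlier results of these data known. All 35 were found among the 41388 genes counted in the 6 libraries of the series. They comprise 7 subunits of the transcription factor AP-1, 2 ATF factors, 4 Egr and 3 Klf zinc finger factors, 3 other transcription factors, 3 immediate early response proteins, 4 brakes on signalling or mRNA, 2 Gadd45 proteins, the neuronal effector Arc and 6 chaperones.

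When a cell is stimulated, kinase cascades act on factors already bound to DNA, such as serum response factor and CREB, and these switch on Fos, Egr1 and their relatives. The new transcription factors then drive later genes, while induced phosphatases and mRNA decay factors shut the response down. In sensory neurons of the dorsal root ganglion, cutting the axon is a stimulus of this kind, and Atf3, Jun and Sox11 are known for their part in the injury response.

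RNA came from EGFP-positive cells that were sorted by flow cytometry from dorsal root ganglia of 18.5 dpc mouse embryos, in 3 male and 3 female libraries. Every library carried the same reporter, labelled Tg(Ret-EGFP)SJ on a C57BL/6 background, while the design text of the series calls the animals heterozygotes with EGFP placed in the Ret locus. Ret encodes a receptor tyrosine kinase made by a part of the sensory neurons, so the sort keeps the cells in which that reporter is on. Each library was made from pooled ganglia: male A and female A of 60 ganglia from 3 embryos, males C and D of 40 ganglia from 2 embryos each, and females B and C of 20 ganglia from 1 embryo each. The labels name no treatment. Females B and C were deposited with labels of another form than the other 4 libraries, and are called record set 2 here; no label says that they were prepared apart. Unsorted ganglia and EGFP-negative cells were not analysed here, so no level can be set against cells that did not go through dissociation. In bulk samples of this kind, fewer cells of a type and less RNA per cell cannot be told apart.

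The libraries held 17861500 to 29330101 counts each. A count of 0 is read here as up to 3 counts, which is 0.102 to 0.168 CPM (counts scaled to a common library total) at these depths. Male A stood apart in markers of cells other than neurons. The summed level of 11 satellite glia and Schwann cell markers was 2584 CPM in male A and 1193 to 1322 CPM in the other 5 libraries. That of 7 fibroblast and meningeal markers was 2876 against 574 to 676 CPM, and that of 6 proliferation markers 297 against 82.5 to 122.5 CPM. Male A was highest for 8 of the 11, 6 of the 7 and all 6. Apoe (965 against 137 to 342 CPM) made up a large part of the glia sum. Fabp7 (337 against 414 to 549 CPM) and S100b were lowest in male A, and Cdh19 and Dcn were highest in female C. Of 9 endothelial and pericyte markers 8 were highest in male A (105 against 43.5 to 83.0 CPM summed), as were 8 of 10 macrophage markers (14.6 against 7.81 to 11.7 CPM summed), while 7 erythroid markers summed to 14.2 CPM in male A and 10.3 to 56.0 CPM in the others, and no marker of any list was at 0 in all 6 libraries. The 10 sensory neuron markers summed to 13460 CPM in male A and to 13533 to 18418 CPM in the others, with the highest sums in females B (18418) and C (17449). Ret itself was measured at 182 ± 27.2 CPM (SD, n = 6).

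Of the 35 genes, 30 had a mean of at least 1 CPM over the 6 libraries, and the set took 0.356% to 0.461% of all counts in a library. Per kilobase of exon (RPKM, with TMM factors), Hspa8 was the most abundant at 260 ± 33.7 (SD, n = 6). Hspa5 followed at 229 ± 57.6 and Fos at 163 ± 86.4 RPKM. Atf4 (93.4 ± 12.4 RPKM) and Sox11 (80.3 ± 44.6) came next. These were followed by Hsp90aa1 (46.0 ± 14.6), Klf6 (41.4 ± 3.60), Ier3 (36.2 ± 10.0), Myc (33.6 ± 7.18), Dnajb1 (29.3 ± 3.94) and Btg2 (25.4 ± 7.99). In this order the mean ± SD of each gene overlapped that of the next, so neighbours did not differ beyond their spread. At the other end, Egr4 had 0 counts in all 6 libraries, and Fosl1, Egr3, Npas4 and Ier5 averaged under 1 CPM. All levels from here on are CPM with TMM factors, which set libraries side by side for 1 gene and not genes beside each other.

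**Figure D1:**
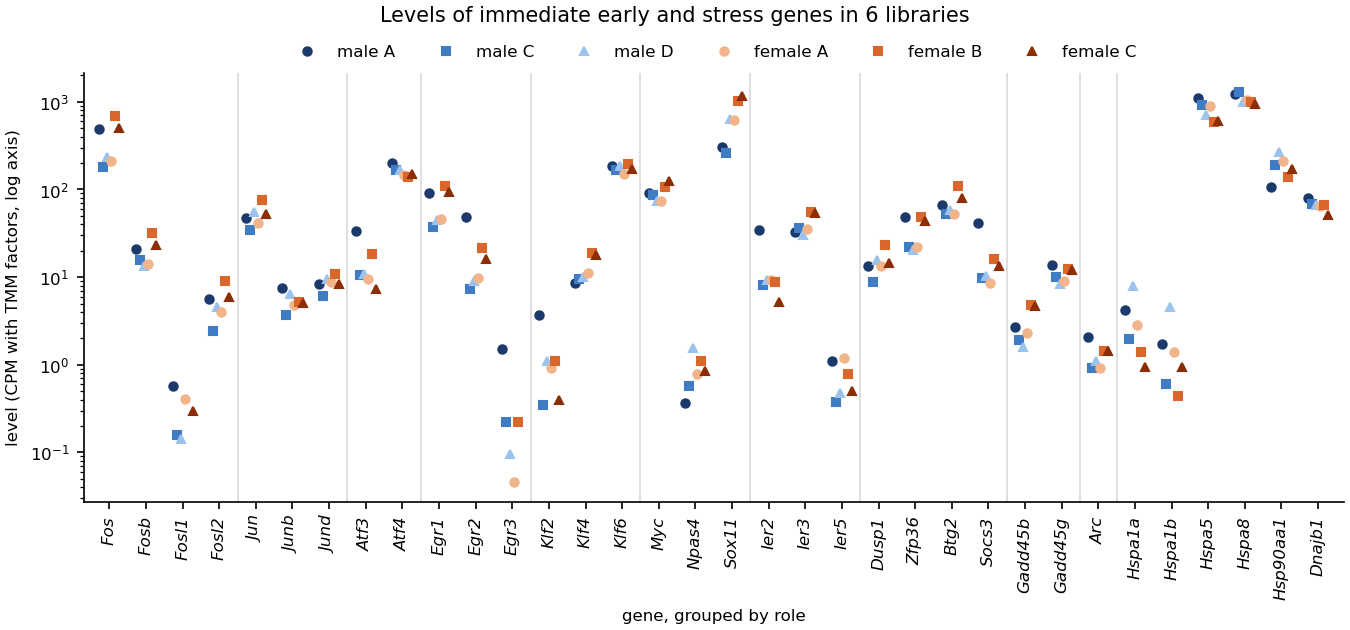
Level of each gene in each of the 6 libraries, in CPM with TMM factors on a log axis, 1 point per library; vertical lines separate role groups, and counts of 0 (Fosl1 in female B, Egr3 in female C, Egr4 throughout, which is not drawn) have no point. Hspa8 and Hspa5 lie near the top in every library, Fos spans 179.6 to 685 CPM, and Egr3 and Fosl1 reach at most 1.52 and 0.575 CPM.

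The Fos proteins form AP-1 with a Jun partner, and Fos is the classic immediate early gene. Fos (chr12:85473890-85477273, plus strand, GRCm38) was measured at 484, 179.6 and 237.6 CPM in the males (A, C, D) and 212.5, 685 and 500.2 CPM in the females (A, B, C). The libraries thus fell into a high trio (male A, female B, female C) and a low trio with no overlap between them, and the trios cut across the sexes. Fosb, a close relative, had the same high trio: 21.0, 15.8 and 13.5 CPM in the males (A, C, D) and 14.2, 32.0 and 23.3 CPM in the females (A, B, C). Fosl2, which encodes Fra-2, ran from 2.41 CPM in male C to 9.14 in female B, with 5.60 in male A and 5.96 in female C against 4.60 in male D and 4.02 in female A. Fosl1, which encodes Fra-1, reached 0.575 CPM in male A at most and had 0 counts in female B, so its values are at or near the counting floor. Of its longest transcript, 56.7% is nearly identical to transcripts of Ccdc85b. Whether this is a copy elsewhere or overlapping annotation of 1 locus was not tested, so whether its reads are divided is not known.

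Of the Jun partners, Jun followed the trio only in part. It was measured at 47.3, 34.8 and 55.0 CPM in the males (A, C, D) and 41.7, 76.8 and 52.8 CPM in the females (A, B, C), so that male D exceeded both male A and female C. Junb ran from 3.71 CPM in male C to 7.43 in male A. Jund, the partner with the steadiest expression in most tissues, ran from 6.15 in male C to 10.8 in female B, a 1.76-fold range against 3.81-fold for Fos. Male C was thus the lowest library for all 3 Jun genes. Reads of Jund can be divided with Gm11175, a gene on the other strand that overlaps 543 bp of its exons. Those of Jun can be divided with the antisense gene Junos over 232 bp.

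Both ATF factors belong to stress signalling: Atf4 is the effector of the integrated stress response, and Atf3 is induced by stress and by axon injury. Atf3 was measured at 33.5, 10.7 and 10.7 CPM in the males (A, C, D) and 9.59, 18.3 and 7.42 CPM in the females (A, B, C). Male A and female B were the 2 highest, but female C was the lowest, so Atf3 did not share the trio of Fos. Atf4 was abundant and even, from 137.8 CPM in female B to 198 in male A, and each female library lay below each male library (145 ± 6.33 against 177 ± 18.4 CPM, SD, n = 3 each).

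The Egr factors are zinc finger proteins induced through serum response factor, and Egr2, also known as Krox20, is in addition the master regulator of myelination in Schwann cells. Egr1 was measured at 91.0, 37.2 and 45.2 CPM in the males (A, C, D) and 45.5, 109 and 94.5 CPM in the females (A, B, C), the same separate trios as for Fos. Egr2 was at 48.3, 7.32 and 9.11 CPM in the males (A, C, D) and 9.82, 21.6 and 16.2 CPM in the females (A, B, C). It too had the high trio on top, but male A exceeded female B by more than female B exceeded the low trio; male A is the library with the highest sum of glia and Schwann cell markers, whose part in the result was not tested. Egr3 reached 1.52 CPM in male A and at most 0.222 in the others, with 0 counts in female C, and Egr4, with 0 counts in every library, can be bounded only by the floor of 0.102 to 0.168 CPM.

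The Klf factors showed 3 different orders. Klf2, best known from endothelium and lymphocytes, reached 3.66 CPM in male A, with 0.348 to 1.11 across the other 5 libraries; the endothelial and pericyte markers were highest in the same library, and their part in the result was not tested. Klf4, which also restrains axon growth, was at 8.53, 9.47 and 9.98 CPM in the males (A, C, D) and 11.1, 18.8 and 17.8 CPM in the females (A, B, C). It was the only gene of the 32 tested whose female libraries all lay above all male libraries, against 4.18% of all tested genes. With plain library totals 2 genes did so, against 2.83% of all tested genes. Klf6, which promotes axon growth, was the steadiest gene of the set, from 151 CPM in female A to 193 in female B with a coefficient of variation of 8.68%.

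Myc, a growth regulator and immediate early gene of dividing cells, was highest in female C (125 CPM) and female B (107), followed by male A (90.7), male C (87.5), female A (74.3) and male D (73.2). Sox11, a factor of immature neurons that is turned on again by axon injury, had another order: 303, 258 and 631 CPM in the males (A, C, D) and 615, 1014 and 1181 CPM in the females (A, B, C). Females B and C were on top as for Fos, but male A was next to the lowest. Npas4, a factor induced by neuronal activity, stayed between 0.366 CPM in male A and 1.53 in male D. Arc, the activity-induced effector at synapses, lay between 0.914 CPM in female A and 2.09 in male A, again with male A, female B (1.44) and female C (1.45) highest. This order rested on few counts, with 26 in female B against 23 in male D.

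The immediate early response genes did not move as 1 group. Ier2, a nuclear protein gene induced alongside Fos, was at 34.5, 8.14 and 9.35 CPM in the males (A, C, D) and 9.18, 8.81 and 5.16 CPM in the females (A, B, C). Its highest library was the one with the highest sums of glia, fibroblast and proliferation markers, whose part in the result was not tested. Its lowest was a library in which Fos was high. Ier3, an anti-apoptotic gene, was at 56.0 CPM in female B and 54.6 in female C and between 30.3 and 36.1 in the other 4, male A among them (33.0). Ier5, a regulator of heat shock factor HSF1, was at 0.380 to 1.19 CPM.

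The brakes of the response include Dusp1, a phosphatase that inactivates MAP kinases, Zfp36, which encodes the mRNA decay factor tristetraprolin, Btg2, an anti-proliferative partner of the deadenylase complex, and Socs3, an inhibitor of JAK-STAT signalling. Zfp36 was measured at 47.96, 22.1 and 20.6 CPM in the males (A, C, D) and 22.3, 48.1 and 43.7 CPM in the females (A, B, C). The trios did not overlap, with 43.7 CPM as the lowest value of the high trio and 22.3 as the highest of the low one. Btg2 was at 67.0, 52.6 and 57.8 CPM in the males (A, C, D) and 51.9, 109 and 80.3 CPM in the females (A, B, C). Dusp1 did not share the trio, with 23.1 CPM in female B, 15.8 in male D, 14.7 in female C, 13.5 in both male A and female A and 8.78 in male C. Socs3 was at 42.0 CPM in male A against 15.9 in female B, 13.2 in female C and 8.63 to 10.3 in the low trio. The 2 Gadd45 genes, stress sensors that bind cell cycle and kinase proteins, both had the trio on top: Gadd45b at 4.76 and 4.66 CPM in females B and C and 2.67 in male A against 1.58 to 2.28, and Gadd45g at 12.3 and 12.1 in females B and C and 13.9 in male A against 8.25 to 9.92.

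Promoter windows of 250 bases before the RefSeq start were available for 27 of the 35 genes (GRCm38.p6) and were searched on both strands for binding motifs of the factors upstream of this response. The cyclic AMP response element TGACGTCA, the site of CREB, was found in 2 of 27 windows, Dusp1 and Btg2, and in 1.55% of all 32851 windows. The CArG box, the site of serum response factor, was found in 1 of 27, Zfp36, and in 1.47% of all windows. No window was available for Fosl1, Egr1, Egr3, Myc, Ier2, Arc, Hspa8 and Hsp90aa1, so these genes were not searched. For the others, Fos among them, no match says only that these letters are not in these 250 bases. The windows with a match lie on the minus strand at chr7:28379229-28379478 for Zfp36, chr1:134079156-134079405 for Btg2 and chr17:26508473-26508722 for Dusp1. Against the gene starts in the deposited files, the RefSeq starts lie 27 bases downstream for Zfp36, 35 upstream for Btg2 and 47 downstream for Dusp1. Positions counted from the deposited starts would differ accordingly. These windows are shown because they hold a match to 1 of these 2 motifs. Btg2 and Zfp36 shared the high trio of Fos and Dusp1 did not. Of the other genes with that trio, Fos, Fosb, Fosl2, Egr2, Socs3, Gadd45b and Gadd45g held neither motif in their windows. Any relation of the motifs to the order of the libraries was not tested. Capitals mark the CArG box, 58 to 49 bases before the start, or the cyclic AMP response element, 166 to 159 bases before the start of Btg2 and 143 to 136 before that of Dusp1.
Zfp36: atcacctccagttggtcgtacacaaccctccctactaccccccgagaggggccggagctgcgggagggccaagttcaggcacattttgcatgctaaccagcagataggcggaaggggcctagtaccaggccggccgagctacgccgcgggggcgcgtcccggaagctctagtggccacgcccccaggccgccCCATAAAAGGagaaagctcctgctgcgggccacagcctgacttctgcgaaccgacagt
Btg2: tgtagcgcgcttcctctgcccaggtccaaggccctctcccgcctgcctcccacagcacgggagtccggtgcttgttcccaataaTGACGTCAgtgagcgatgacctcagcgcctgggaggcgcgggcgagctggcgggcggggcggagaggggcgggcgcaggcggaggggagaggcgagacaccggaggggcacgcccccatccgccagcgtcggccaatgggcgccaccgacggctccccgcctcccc
Dusp1: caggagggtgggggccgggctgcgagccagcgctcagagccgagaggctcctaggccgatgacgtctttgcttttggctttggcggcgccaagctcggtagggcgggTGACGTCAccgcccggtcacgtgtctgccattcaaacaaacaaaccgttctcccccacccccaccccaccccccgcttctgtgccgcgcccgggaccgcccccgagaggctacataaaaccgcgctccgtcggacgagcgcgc
A match is a run of letters and not a measured site. The Egr site GCGTGGGCG (0.536% of all windows) had no match in the 27, which says only that these letters are not in these windows.

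**Figure D2:**
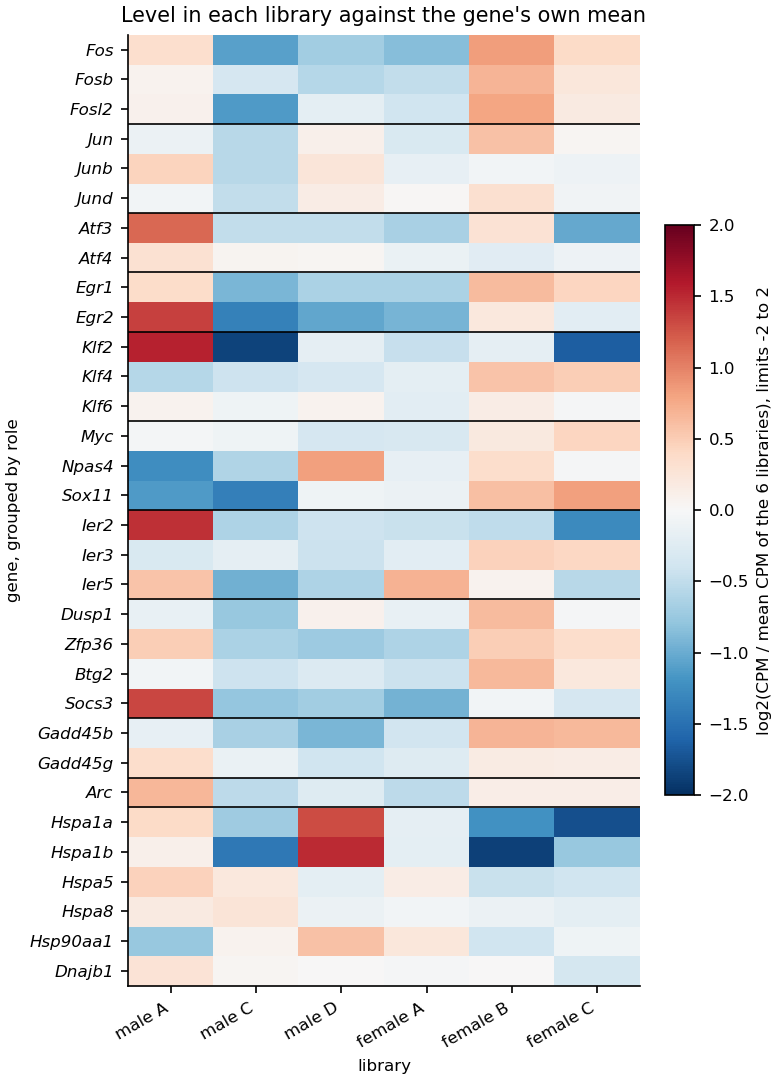
Level of each of the 32 tested genes in each library as log2 of its CPM over its own mean of 6 libraries, from blue (below the mean) to red (above), with limits of -2 to 2 and lines between role groups. Fos, Egr1 and Zfp36 lie above their mean in male A and females B and C. The darkest red of Egr2, Klf2, Ier2 and Socs3 is in male A, and that of Hspa1a and Hspa1b in male D.

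The 6 chaperones ran in other orders than Fos. Hspa8 encodes the constitutive Hsc70, Hspa5 the ER chaperone BiP, Hsp90aa1 an Hsp90, Dnajb1 an Hsp40 co-chaperone, and Hspa1a and Hspa1b are the twin genes of the heat-inducible Hsp70. Hspa8 was at 1218, 1289 and 994 CPM in the males (A, C, D) and 1043, 989.8 and 943 CPM in the females (A, B, C), a 1.37-fold range. Hspa5 was at 1105, 930.3 and 705 CPM in the males (A, C, D) and 891, 594 and 612 CPM in the females (A, B, C), so that the females that were high for Fos were lowest for BiP. Hsp90aa1 was lowest in male A (107 CPM) and highest in male D (270.3). Dnajb1 was between 51.7 CPM in female C and 79.8 in male A. Each female library was below each male library for Dnajb1, but female B (66.5 CPM) and male D (66.8) nearly tied.

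The heat-inducible pair had low values in every library as counted. Hspa1a was measured at 4.18, 1.96 and 7.91 CPM in the males (A, C, D) and 2.83, 1.38 and 0.952 CPM in the females (A, B, C), and Hspa1b at 1.73, 0.602, 4.56, 1.42, 0.443 and 0.952 CPM in the same order. Male D was highest for both, with male A next, and females B and C were the 2 lowest for Hspa1a. The pair shares 99.228% identity over 2201 bp, and 75.7% of the longest Hspa1a transcript and 78.5% of that of Hspa1b lie in near-identical copies. Reads of the pair may be divided between them or left out, depending on counting settings not given in the sources used here. Low values as counted therefore need not mean low expression. Similar copies cover 64.8% of the longest Hspa8 transcript, in 9 other genes, and 68.7% of that of Hsp90aa1, in 3. The promoters of the pair, at chr17:34972157-34972406 and chr17:34959239-34959488 on the minus strand in RefSeq GRCm38.p6, are nearly the same as well, and are shown to let the twins be compared: they differ at 3 of 250 positions, marked by capitals.
Hspa1a: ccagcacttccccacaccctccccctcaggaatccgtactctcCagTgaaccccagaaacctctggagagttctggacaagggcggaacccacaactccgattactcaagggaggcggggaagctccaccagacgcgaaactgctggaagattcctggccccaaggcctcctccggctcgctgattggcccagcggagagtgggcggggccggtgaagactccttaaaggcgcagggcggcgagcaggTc
Hspa1b: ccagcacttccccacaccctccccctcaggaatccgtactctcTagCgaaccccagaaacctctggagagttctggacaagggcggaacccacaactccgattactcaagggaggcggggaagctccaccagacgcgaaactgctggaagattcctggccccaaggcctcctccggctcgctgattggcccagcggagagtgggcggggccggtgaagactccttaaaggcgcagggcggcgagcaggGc
The heat shock element, 3 blocks GAA, TTC and GAA each set apart by any pair of bases, had no match in the 27 windows (0.466% of all windows); that says only that this strict spelling is not in them.

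Hspa5 is the textbook target of the unfolded protein response. Its window (chr2:34771840-34772089, plus strand, RefSeq GRCm38.p6, with a start 120 bases from that of the files) alone among the 27 held an ER stress response element, CCAAT and CCACG set 9 bases apart, which 0.113% of all windows hold. It alone also held the AP-1 site TGANTCA (6.75% of all windows). Capitals mark the AP-1 site, 182 to 176 bases before the start, and the ER stress response element, 65 to 47 bases before it.
Hspa5: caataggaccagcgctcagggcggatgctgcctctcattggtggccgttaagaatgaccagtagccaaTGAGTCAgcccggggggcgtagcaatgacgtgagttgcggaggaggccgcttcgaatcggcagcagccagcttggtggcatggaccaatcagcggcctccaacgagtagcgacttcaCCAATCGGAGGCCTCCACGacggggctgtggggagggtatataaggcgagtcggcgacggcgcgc
The CCAAT box, which the ER element contains, was in 14 of the 27 windows and in 33.8% of all windows.

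Whether the genes moved together was described by the order of the libraries for the 32 genes that passed the filter on low counts (all but Fosl1, Egr3 and Egr4), each beside the share of all 14958 tested genes. The highest library was female B for 13 of 32 genes (16.6% of all tested genes) and male A for 11 (31.1%). It was male D for 4 (16.3%), female C for 2 (12.9%), male C for 1 (10.8%) and female A for 1 (12.3%). Male A is the library with the highest marker sums of most other cell types, whose part in the result was not tested. A highest level in male A was close to the background, while one in female B, 13 of 32, was more frequent in the set than among all genes. The count for female B was 9 with plain library totals (10.1% of all tested genes). It was 13 with RLE (17.4%) and 12 with upper quartile factors (17.2%). The lowest library was male C for 11 of 32 (14% of all tested genes), male D for 6 (17%), female C for 5 (15%), female A for 4 (12.4%), male A for 3 (28.4%) and female B for 3 (13.2%). Male C was the most deeply sequenced library.

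The trio of male A, female B and female C made up the 3 highest libraries for 12 of 32 genes, against 10.4% of all tested genes. This order was singled out after the values of Fos had been seen, and Fos is 1 of the 12. The others were Fosb, Fosl2, Egr1, Egr2, Myc, Zfp36, Btg2, Socs3, Gadd45b, Gadd45g and Arc. The same 12 genes were counted with plain library totals, RLE or upper quartile factors, against 5.74%, 10.2% and 10.5% of all tested genes. The order rested on few counts for Arc (26 in female B against 23 in male D) and Gadd45b (51 in male A against 50 in female A). For Fosl2 it rested on 107 counts in male A against 96 in male D. Females B and C were the 2 highest for 10 genes (11.3% of all tested genes): Fos, Fosb, Fosl2, Egr1, Klf4, Myc, Sox11, Ier3, Btg2 and Gadd45b. With plain library totals this count was 6 (6.97% of all tested genes). Females B and C were the 2 lowest for 3 genes, Hspa1a, Hspa5 and Hspa8 (10.3% of all tested genes). With plain library totals they were the 2 lowest for 6 (16.7%), and with RLE or upper quartile factors for 2 (10.2% and 9.98%). Since Fos splits the libraries into separate clusters, no correlation over the 6 libraries is given.

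The orders were also counted without male A. In the other 5 libraries, female B was highest for 18 of 32 genes (21.9% of all tested genes), and females B and C were the 2 highest for 15 (19.1%). The 15 were the 12 genes of the trio, which enter by construction, together with Klf4, Sox11 and Ier3. Females B and C were the 2 lowest for 4 genes (18.2%), all of them chaperones: Hspa1a, Hspa5, Hspa8 and Hsp90aa1. As a share of the 32 genes, this was below that of all tested genes. As a share of all counts of the set, the 6 chaperones made up 39.7% in female B and 40.7% in female C and 55.9% to 68.6% in the other 4 libraries. Both sides of this share differed: the chaperones summed to 1790 and 1779 CPM in females B and C and 2048 to 2514 CPM elsewhere, and the other genes of the set, Sox11 and Fos above all, to 2721 and 2591 CPM against 1136 to 1794 CPM. Both libraries are also those of 1 embryo and 20 ganglia each and those with the highest neuronal marker sums; pool size, record set and these sums cannot be told apart over 6 libraries.

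**Figure D3:**
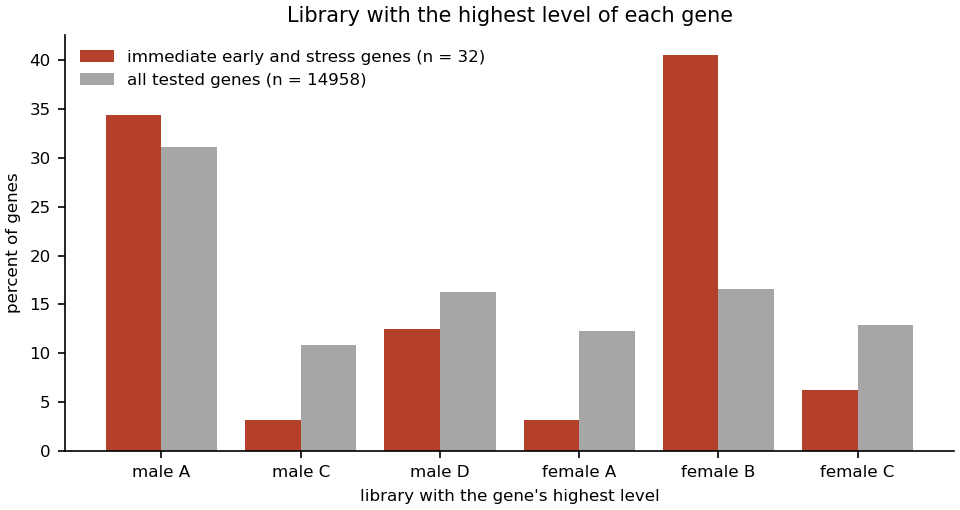
Percent of genes whose highest level falls in each library, for the 32 tested immediate early and stress genes and for all 14958 tested genes. Male A holds 34.4% of the set and 31.1% of all genes; female B holds 40.6% of the set and 16.6% of all genes.

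**Figure D4:**
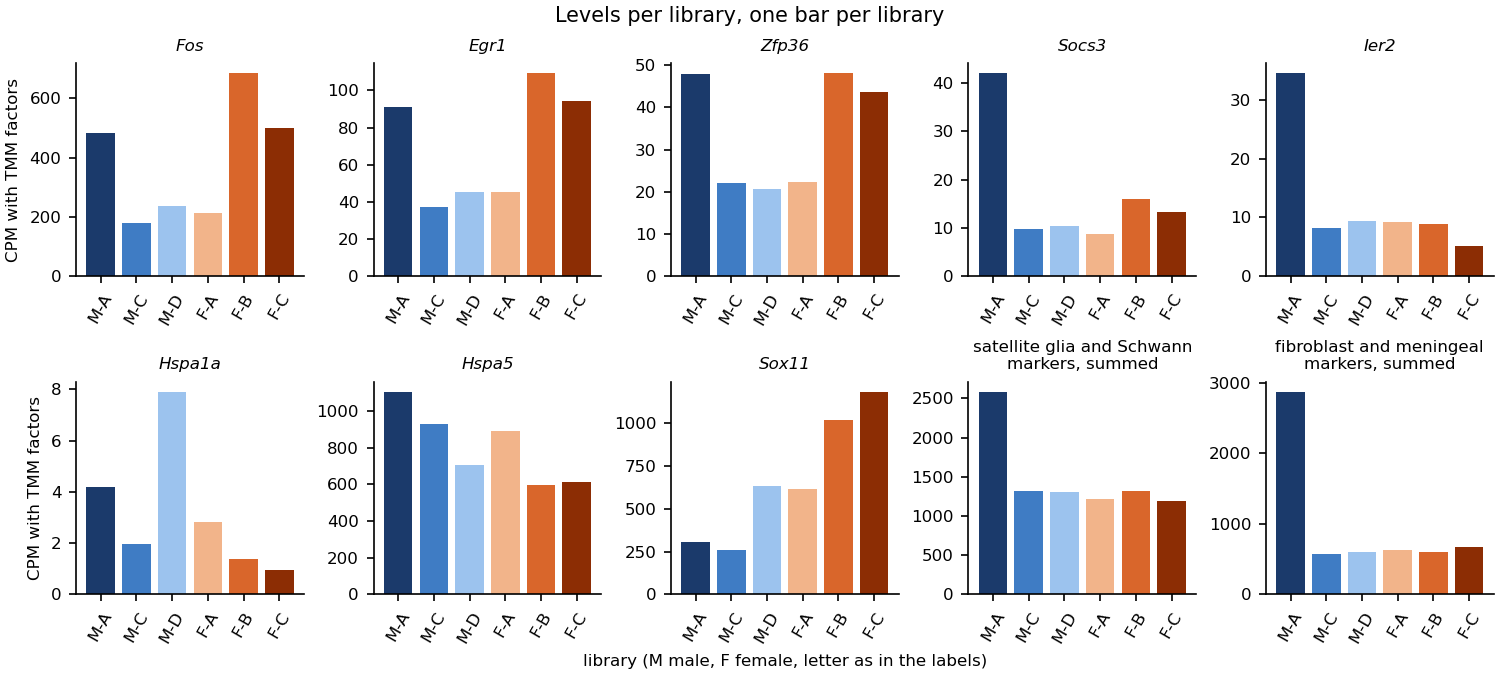
CPM with TMM factors of 8 genes and the summed level of 2 marker lists, 1 bar per library (M male, F female, with the letter of the labels), each axis from 0. Fos, Egr1 and Zfp36 are high in M-A, F-B and F-C; Socs3, Ier2 and both marker sums are highest in M-A; Hspa1a is highest in M-D; Hspa5 is lowest and Sox11 highest in F-B and F-C.

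Between the sexes, none of the 32 tested genes was called by edgeR's quasi-likelihood test at an adjusted p under 0.05, against 4 of 14958 genes (0.0267%). The lowest adjusted p of the set was 0.961, and DESeq2 and limma voom called 0 of the 32 as well. At an unadjusted p under 0.05 there were 5 of 32, against 4.42% of all tested genes: Sox11 (log2 change, female minus male, of 1.24 with an SE of 0.37), Klf4 (0.77, SE 0.27), Ier3 (0.55, SE 0.23), Gadd45b (0.93, SE 0.41) and Hspa1a (-1.43, SE 0.58). The sign was positive for 17 of 32 (49.5% of all tested genes), with a median log2 change of 0.11 in the set and -0.0036 over all genes. All 6 chaperones had a negative sign, with a median of -0.31. This held under each scaling, but not in every other setting. Hsp90aa1 had a positive sign without male D, without female B, with the replicate block, with record set as a term (0.16) and within record set 1 (0.16), and Hspa1b with the replicate block. Atf4 and Dnajb1 were the 2 genes whose female libraries all lay below all male libraries (3.88% of all tested genes). With plain library totals, RLE or upper quartile factors only 1 gene did so (6.44%, 4.45% and 4.48% of all tested genes).

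The signs between the sexes differed with the treatment of record set. With record set as a term in the edgeR fit, the sign was positive for 8 of 32 genes, and 11 of the 32 had another sign than without the term. The log2 change of Fos was 0.63 (SE 0.46) over all 6 libraries, -0.50 with record set as a term, -0.50 within record set 1 alone, and 1.16 without male A. That of Egr1 was 0.52 (SE 0.40) over all 6 libraries, -0.34 with record set as a term, -0.34 within record set 1 and 1.01 without male A. Sox11 kept a positive value of 0.63 both with the term and within record set 1, and Hspa1a a negative one of -0.72. Both were smaller in size than over all 6 libraries (1.24 and -1.43). With the term, Klf4 was at 0.25, Ier3 at 0.09 and Gadd45b at 0.16, against 0.77, 0.55 and 0.93 over all 6 libraries. Record set 1 holds female A as its only female, and record set 2 holds no male.

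Record set 2 holds no male, so with sex as a term the difference between the record sets is that of females B and C from the single library female A, and the 3 males enter only the estimate of spread. In this fit none of 34 tested genes was called by edgeR, against 0 of 16581 genes (0%). The adjusted p of the set was 0.999 throughout, the lowest of all genes was 0.669, and DESeq2 and limma voom called 0 of the 34. At an unadjusted p under 0.05 there were 3 of 34, against 3.2% of all tested genes: Fos (log2 change, record set 2 minus 1, of 1.47 with an SE of 0.59), Btg2 (0.86, SE 0.33) and Fosb (0.96, SE 0.41). The sign was positive for 23 of 34 (50.4% of all tested genes), and the median log2 change was 0.45 in the set and 0.0048 over all genes. Egr1 was at 1.15 (SE 0.54), Zfp36 at 1.03 (SE 0.55), Gadd45b at 1.04 (SE 0.54) and Sox11 at 0.83 (SE 0.53). The 6 chaperones had negative values from -1.28 (Hspa1a) to -0.12 (Hspa8), with a median of -0.51.

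Calls were made in 3 other settings. Among the 3 female libraries alone, where female A is the only library of record set 1, is assumed to vary like the others and leaves 1 residual degree of freedom, edgeR called Fos (log2 change 1.47, adjusted p = 0.019) and Egr1 (1.16, adjusted p = 0.0307), where 0.861% of all tested genes were called. Without both male A and the sex term, a choice made after the data were seen, it called Fos (1.49, adjusted p = 0.0167), Egr1 (1.25, adjusted p = 0.0181) and Zfp36 (1.08, adjusted p = 0.0237), where 1.28% of all tested genes were called; leaving out male A alone or the sex term alone gave 0 calls of the set. With the replicate letter as a block, the comparison of the sexes called Sox11 (log2 change 1.61, adjusted p = 0.0124), where 0.515% of all tested genes were called. The mean Fos level of females B and C was 2.79 times that of female A.

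**Figure D5:**
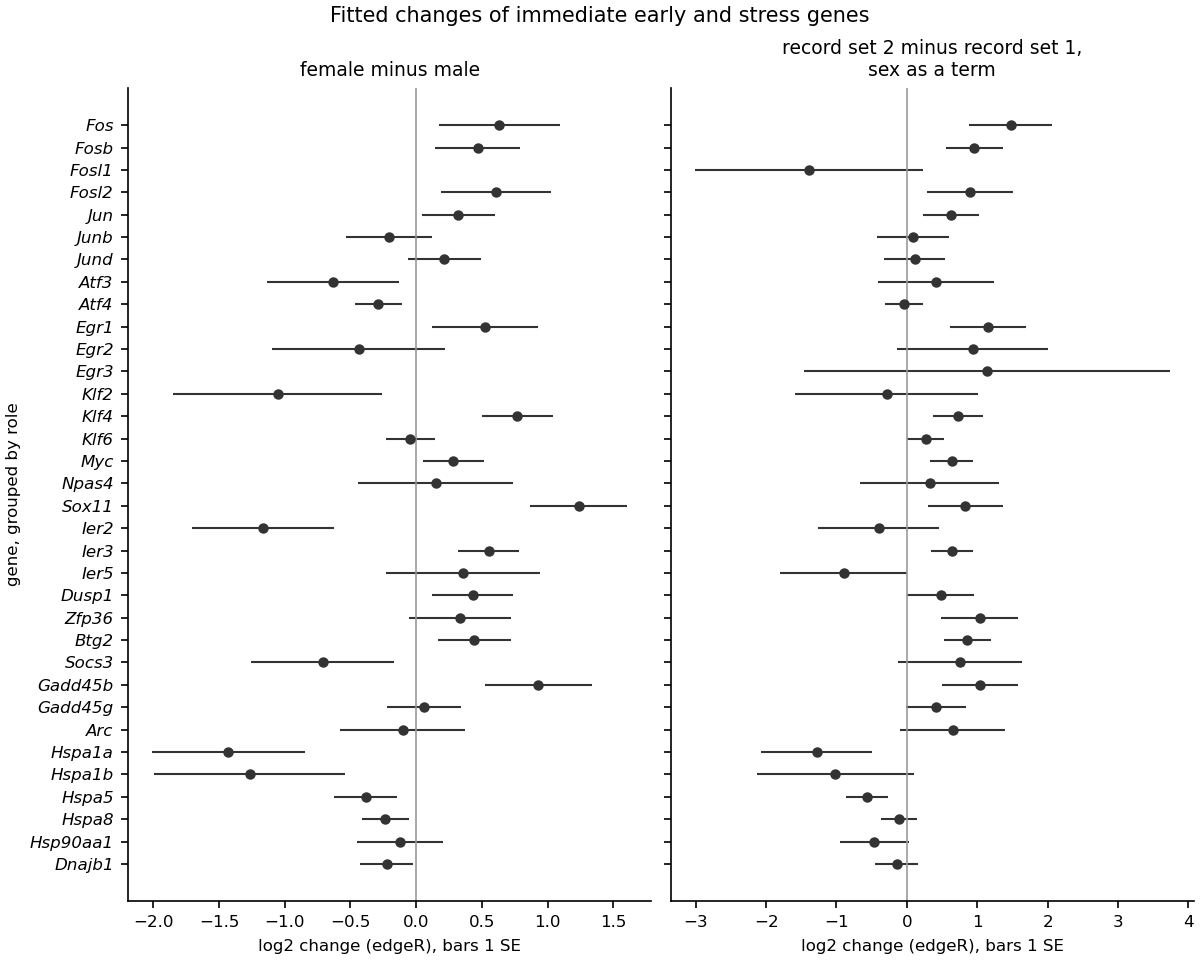
Log2 change of each tested gene with 1 SE on either side (edgeR), female minus male on the left (32 genes) and record set 2 minus record set 1 with sex as a term on the right (34 genes); the 2 axes have different ranges. Sox11 has the highest value on the left and Fos the highest on the right, at 1.24 and 1.47; the 6 chaperones at the foot lie left of 0 in both panels.

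Genes of the surrounding pathway were read from the same fits, and none was called in either comparison. The counts below are of genes with a positive sign between the record sets, that is of females B and C against female A alone, and stand beside 50.4% of all tested genes. Of 32 other immediate early genes 26 had a positive sign, with a median log2 change of 0.34. Pim1, a survival kinase, was at 23.4 and 16.8 CPM in females B and C and 3.10 to 8.63 in the others. Ccn1, a secreted target of serum response factor and YAP, was at 239 CPM in male A, 195 in female B, 157 in female C, 106 in male C, 112 in male D and 81.6 in female A, the trio of Fos once more. That trio was on top for 8 of 31 of these genes tested between the sexes (10.4% of all tested genes), while 16 of 31 were highest in male A (31.1%). Male A had the highest marker sums of most other cell types, whose part in the result was not tested.

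Of 13 MAP kinase phosphatases and feedback genes 7 had a positive sign. Spry2, which dampens growth factor receptor signalling, was at 556 CPM in female B and 259.8 in female C against 25.6 to 91.6 in the other 4, a log2 change of 2.15 (SE 0.73). Dusp8 followed with 0.62 (SE 0.34). Of 9 tested relatives in mRNA decay and growth arrest 6 were positive, led by Tob1 (68.6 and 47.1 CPM in females B and C, 3.10 to 14.7 in the others) and Tob2 (18.8 and 21.1 CPM, against 7.70 to 10.0), both relatives of Btg2.

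Of 18 other cytosolic heat shock genes 6 had a positive sign and 12 a negative one. Hsph1, an Hsp110 exchange factor, was at 127 CPM in both female B and female C and 139 to 211 in the others, while Hsf2, a heat shock factor, went the other way with 118 and 117 against 24.6 to 56.8 CPM. Of 23 genes of the unfolded protein and integrated stress responses 11 were positive. Pdia3, an ER disulfide isomerase, was at 469 CPM in female B and 158 in female C and 793 to 1081 in the others, and Dnajc3, an ER co-chaperone, at 20.4 and 15.8 against 25.6 to 36.4 CPM. These are the libraries in which Hspa5 was lowest as well. Male A was the highest library for 13 of these 23 genes (31.1% of all tested genes). The marker sums of glia, fibroblasts and most other cells were highest there too, and their part in the result was not tested.

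Of 15 tested axon injury and regeneration genes 7 had a positive sign, with log2 changes of 0.78 for Stmn4 and 0.40 for Gap43, the growth cone protein gene. The 19 upstream regulators, which include kinases and the factors that switch on Fos, had a positive sign in 1 case and a median log2 change of -0.27 against female A, which was itself the highest of the 6 libraries for 6 of the 19 (12.3% of all tested genes). Elk1, a partner of serum response factor, was at -0.64 (SE 0.39), though its 7.43 CPM in male A lay between the 7.03 and 7.72 CPM of females B and C, and Mef2d, an activity-regulated factor, at -0.48 (SE 0.32).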

How the data were processed

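RNA of sorted dorsal root ganglion cells was measured in 6 libraries of pooled embryos. Per the labels' protocols, 10 ng of RNA went into SMARTer cDNA amplification, without molecular identifiers. Per the submitters' processing notes, the tools were Subread and featureCounts 1.4.5, with GRCm38.p2 as the build. The version of Subread and the strand and multi-mapping settings were not given in the sources used here. Per the file headers, the authors deposited raw counts per Ensembl gene. The deposited CPM are the authors' counts scaled to a common library total, and the deposited RPKM divide these by exon length; both were recomputed from the counts (largest differences 4.5e-11 and 6.4e-12), and only counts and lengths were used further. Genes were matched by Ensembl ID.

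Levels are CPM or RPKM with TMM factors (0.922 to 1.08) of edgeR 4.0.16 in R 4.3.3. Sexes were compared by edgeR's quasi-likelihood test after filterByExpr, and record sets likewise with sex as a term, with Benjamini-Hochberg adjustment over all tested genes and a threshold of 0.05; the biological coefficient of variation was 31.1% and 34.1%. On simulated data with the same spread for every gene, the test recovered 22.4% of 2-fold and 91% of 4-fold changes between the sexes. Between the record sets it recovered 0% of 2-fold, 14.9% of 4-fold and 65.2% of 8-fold changes. The labels do not say more of the replicates than that they came from different embryos, so p-values measure the spread between these pools; counting floors cover counting error only. Copies were sought with blastn 2.17.0 in GENCODE M21 (at least 95% identity over 150 bp). All 35 genes are named; of each related list, the 2 genes with the smallest p between record sets. The genes, the lists and the marker lists were chosen with earlier results of these data known. Alternatives were RLE, upper quartile or no factors, other low-count filters, DESeq2 1.42.0, limma voom 3.58.1, record set, pool size or replicate letter as a term, parts of the libraries, and leaving out each library; fits without a sex term that also leave out a library, the fit without males A and C, and the orders with other scalings of the trio or without male A were added after the data were seen.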

Additional observations from a re-analysis of the deposited data

Results flagged for a closer look

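In 5 of the 32 tested genes 1 library lay so far above the other 5 that its gap to the next was over 0.625 of the whole range; chance gives this for about 1 group in 20. Among all 14958 tested genes, 12.4% had a library apart at either end by the same measure, and 8.86% had male A apart as the highest, so that 5 of 32 is near the background. Egr2 was at 48.3 CPM in male A, with 7.32 to 21.6 in the others. Klf2 was at 3.66 CPM in male A, with 0.348 to 1.11 in the others. Ier2 was at 34.5 CPM in male A, with 5.16 to 9.35 in the others. Socs3 was at 42.0 CPM in male A, with 8.63 to 15.9 in the others. Hspa1b was at 4.56 CPM in male D, with 0.443 to 1.73 in the others. Male A is also the library with the highest sums of glia, fibroblast, endothelial, macrophage and proliferation markers; their part in these values was not tested.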

How the results depend on the processing

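The number of the 35 genes called was 0 in both comparisons and remained 0 in every other setting run except 3. With the replicate block, the comparison of the sexes called 1 gene, Sox11, and 77 of 14958 genes in all, on 1 residual degree of freedom; the letters A and C are shared by the sexes but pair nothing in the labels, and the deviations of same-lettered libraries correlated at -0.13 (A) and 0.04 (C). Between the record sets, the female libraries only gave 2 genes, Fos and Egr1, and 136 of 15795 genes in all. Leaving out 1 library gave 0 called genes between the sexes and 0 to 3 between the record sets; the 3 (Fos, Egr1, Zfp36; 209 of 16340 genes in all) came without male A and without a sex term, a setting added after the data were seen. The record set fit without female A could not be made with sex as a term, since sex and record set then coincide. Over all tested genes, DESeq2 called 13 and no low-count filter 14 between the sexes where edgeR called 4, and 13 and 3 between the record sets where edgeR called 0. Of 32 genes, 21 had another sign between the sexes in at least 1 setting, as did 12 of 34 between the record sets. Plain library totals moved the median log2 change of all genes to -0.12 between the sexes and -0.09 between the record sets. The mean level of each detected gene moved by less than 1 SD in 238 of 238 alternative values. Most of these left out 1 library, which cannot move a mean of 6 libraries by 1 SD, so the count says little. The number with at least 1 CPM was 29 or 30. The trio of Fos counted 12 genes under each scaling. With 3 libraries a sex the test can miss moderate changes, and with 1 female in record set 1 also large ones, and genes near 0.168 CPM are limited by depth.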
